A study of Rattus norvegicus with 4 samples.

Results

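A set of 9 genes that low oxygen is known to induce, and that act in signalling, transcription, chromatin or the control of glycolytic flux, was followed in rat hepatic stellate cells given ginsenoside Rk1. They are Vegfa, Adm, Ndrg1, Ankrd37, Ddit4, Mxi1, Kdm3a, Pfkfb3 and Pfkfb4. These 9 of the 32883 genes in the count table were chosen by name, each on 1 Ensembl identifier, and all 9 were among the 12316 genes abundant enough to be tested. They were picked with earlier results of the same libraries known, and Vegfa was included as a gene already seen to stay nearly level. HSC-T6 is a rat stellate cell line immortalised with a viral T antigen, and stellate cells are the liver cells that turn into collagen-producing myofibroblasts. RNA was sequenced from 2 libraries of untreated HSC-T6 cells and 2 of HSC-T6 cells treated with Rk1 (GRK1 in the labels), a saponin of processed ginseng. The sources used here give no dose, duration, vehicle or oxygen tension. Whether the libraries within a group stem from independent cultures is not stated, and the p-values below are therefore set by library-to-library spread that could be technical.

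Cells sense oxygen through prolyl hydroxylases, which mark the alpha subunits of hypoxia-inducible factor (HIF) for destruction by the von Hippel-Lindau protein. When oxygen or the cofactors of these enzymes run short, HIF accumulates, pairs with ARNT and binds short DNA elements near its target genes. Some targets are secreted signals (Vegfa, Adm), some restrain growth (Ddit4, Mxi1), some reset glycolysis (Pfkfb3, Pfkfb4), and Kdm3a is itself an oxygen-dependent enzyme that removes methyl groups from histone H3. Many of these genes also answer to other stress factors. In stellate cells, VEGF made under low oxygen is known for its part in vessel growth in scarred liver.

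The HIF element has a core of 5 letters, ACGTG or GCGTG. RefSeq promoter windows (GRCr8), which run from 250 bases before to 50 bases after an annotated start, were available for 8 of the 9 genes, all but Ndrg1. Either core stood on either strand in the windows of 5 of these 8 genes, namely Ankrd37, Ddit4, Mxi1, Kdm3a and Pfkfb3. The same held for 44.6% of all 27457 genes with a window and for 64.1% of the 8956 tested genes among them. The members' share for either core thus lay near that of the tested genes. The shares for each core alone are given in the closing section. The stretches around the cores are shown because they set apart the genes that carry several cores, or a core close to the start, from those with 1 core far upstream. Capitals mark the cores, and each stretch is given 5′ to 3′ on the strand of the gene.
Ankrd37, plus strand, chr16:53001464-53001511: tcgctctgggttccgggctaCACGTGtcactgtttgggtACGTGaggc
Ddit4, minus strand, chr20:28437151-28437195: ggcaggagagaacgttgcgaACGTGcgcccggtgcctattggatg
Ddit4, minus strand, chr20:28437079-28437123: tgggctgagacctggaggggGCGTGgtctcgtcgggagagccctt
Mxi1, plus strand, chr1:262348392-262348418: cgACGTGtactggcttgggggcgggac
Kdm3a, minus strand, chr4:105233298-105233342: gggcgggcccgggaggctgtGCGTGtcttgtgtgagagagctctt
Pfkfb3, plus strand, chr17:71944871-71944916: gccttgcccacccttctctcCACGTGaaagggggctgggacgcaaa

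In Ankrd37 the cores shown begin 23, 22 and 4 bases before the start, and further cores begin 147 and 236 bases before it. Ddit4 has cores at 138 and 66 bases, Pfkfb3 at 42 and 41, Kdm3a at 211 (in 1 of its 2 windows) and Mxi1 at 248 bases before the start. The cores at 23 and 22 in Ankrd37 are the same CACGTG site read on both strands, as are those at 42 and 41 in Pfkfb3. The palindrome CACGTG, which holds ACGTG on both strands and is also the letters that MYC-MAX and MXI1-MAX dimers bind, was found for Ankrd37 and Pfkfb3 alone among the 8 genes, and for 7.1% of all genes with a window (893 of the 8956 tested ones). No core was found in the windows of Vegfa (2 starts), Adm or Pfkfb4, which says only that these letters are not in those windows. A match is a description of the letters and does not show binding.

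Total counts ranged from 18008586 to 20430930 per library, so that 3 counts correspond to 0.148 to 0.167 CPM (counts scaled to the library total). Of 14 stellate and fibroblast markers 12 were tested, with Lrat and Reln at 0 in all 4 libraries, and their summed level was 21988 to 23053 CPM untreated and 15161 to 15228 CPM with Rk1. Most of that sum came from Col1a1 (12485 and 11615 CPM untreated, 8065 and 7969 with Rk1) and Col3a1 (4938 and 4752, then 2595 and 2660). By edgeR, Acta2, Gfap, Timp1 and Spp1 were also called lower. Vim, Pdgfra, Pdgfrb, Hgf, Des (log2 fold change 0.37) and Ngfr (0.32) were not called. Hepatocyte markers summed to 0.197 to 0.330 CPM, with Ttr, Tat, Cps1 and Hnf4a at 0 in all libraries. Endothelial markers summed to 1.89 to 2.58 CPM and macrophage markers to 1.13 to 1.95 CPM, with Stab2, Lyve1, Adgre1, Marco and Ptprc at 0. The endothelial sum covers 5 of 6 markers, since Pecam1 was not matched to a single identifier. Cholangiocyte markers summed to 7.29 and 9.07 CPM untreated and to 2.78 and 2.58 CPM with Rk1, nearly all of it from Sox9. Mitochondrial genes held 3.11% and 3.24% of counts untreated and 3.60% and 3.68% with Rk1. Whether the lower summed level of the stellate markers or the higher mitochondrial share has a part in the results that follow was not tested.

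Of the 9 genes, 5 rose with Rk1, and they are Ankrd37, Ddit4, Kdm3a, Mxi1 and Ndrg1. Ankrd37 and Ddit4 rose the most, 2.42-fold and 2.22-fold, while Kdm3a (1.64-fold), Mxi1 (1.49-fold) and Ndrg1 (1.43-fold) rose less. Adm, Vegfa, Pfkfb4 and Pfkfb3 did not pass the test, with estimates of 1.31-fold, 1.13-fold, 1.11-fold and 1.11-fold. Of all tested genes, 11.5% were called higher and 10.5% lower, at an adjusted p under 0.05 in edgeR's two-sided quasi-likelihood test. By edgeR, 6 members were higher at an unadjusted p under 0.05, Pfkfb3 being the sixth. The share of all tested genes at that unadjusted threshold was not computed, so the 11.5% cannot be set against this count. Likewise by edgeR 0 members were called lower, and 0 at an unadjusted p under 0.05, as by DESeq2 and limma-voom. The median log2 fold change of the 9 genes was 0.51, against 0.00 over all tested genes. In 7 of the 9 genes the Rk1 libraries lay above the untreated ones, which holds for 32.1% of tested genes. In these bulk libraries, more expressing cells and more RNA per cell cannot be told apart.

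**Figure D1:**
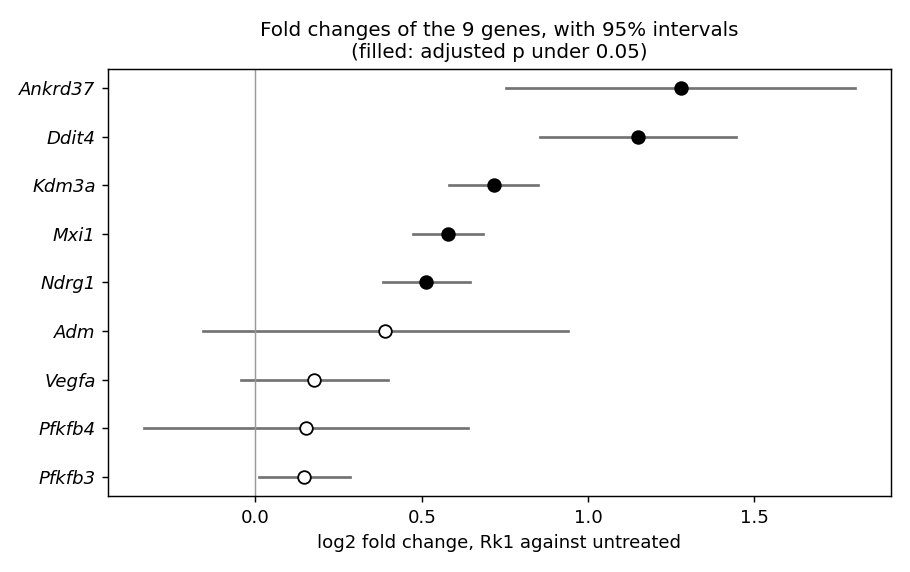
Log2 fold change of each gene, Rk1 against untreated (x axis), with its 95% interval from edgeR's quasi-likelihood fit (2 libraries per group), and filled circles for an adjusted p under 0.05. The 5 filled genes run from 0.51 (Ndrg1) to 1.28 (Ankrd37), and the 4 open ones from 0.15 to 0.39.

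Levels were compared between genes as CPM per kilobase of exon, with the exon lengths of the deposited table. Untreated, the order from the top was Ndrg1 (67.6 ± 2.9, SD, n = 2), Ddit4 (46.0 ± 8.0), Vegfa (39.5 ± 5.4), Mxi1 (25.7 ± 0.070), Kdm3a (18.6 ± 0.48) and Pfkfb3 (16.8 ± 0.016). Far lower stood Ankrd37 (2.28 ± 0.46), Pfkfb4 (1.57 ± 0.14) and Adm (1.38 ± 0.16). The ranges of Ddit4 and Vegfa overlapped across libraries, although Ddit4 was the higher in each untreated library (40.4 against 35.6, and 51.7 against 43.3). Pfkfb4 and Adm changed order between the untreated libraries. With Rk1, Ddit4 reached 102 ± 14 and Ndrg1 96.5 ± 5.7 CPM per kilobase, with Ndrg1 the higher in replicate 1 and Ddit4 in replicate 2. Vegfa then stood at 44.6 ± 3.5, Mxi1 at 38.5 ± 0.38, Kdm3a at 30.6 ± 1.9 and Pfkfb3 at 18.6 ± 1.3. Ankrd37 stayed among the 3 lowest after its rise, at 5.55 ± 0.73, with Adm at 1.81 ± 0.27 and Pfkfb4 at 1.75 ± 0.21. A change in transcript isoforms would alter the true length and is not seen in these counts.

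**Figure D2:**
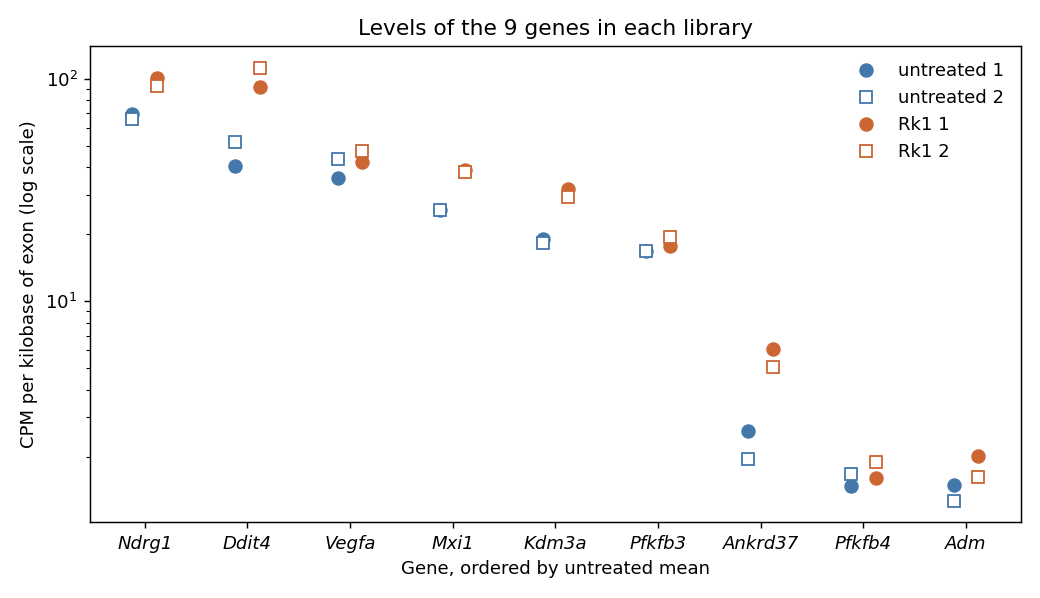
CPM per kilobase of exon (y axis, log scale) of the 9 genes in each of the 4 libraries, ordered by the untreated mean; circles are replicate 1 and squares replicate 2. Ddit4 passes from 40.4 and 51.7 untreated to 91.9 and 112 with Rk1, to the level of Ndrg1, while the points of Vegfa interleave.

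Vegfa and Adm encode secreted ligands. Vegfa, the main growth factor for blood vessels (ENSRNOG00000019598, chromosome 9, 17340341 to 17355681, plus strand, Rnor_6.0), was at 126 and 154 CPM untreated and at 149 and 167 CPM with Rk1. The lower Rk1 library lay below the higher untreated one, so the groups overlapped. The log2 fold change was 0.18 ± 0.09 (SE, edgeR adjusted p = 0.22), and its 95% interval ran from 0.97-fold to 1.32-fold. Without untreated replicate 2 the estimate was 0.32 and was called (edgeR adjusted p = 0.029), and without untreated replicate 1 it was 0.04. Over the 13 alternatives the adjusted p of Vegfa ran from 0.029 to 0.77 and 2 of them called it, both given in the closing section. The interval thus includes no change as well as a modest rise.

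Adm, the vasodilator peptide adrenomedullin (ENSRNOG00000027030, chromosome 1, 175445088 to 175447259, plus strand), had 42 and 32 counts untreated and 50 and 41 with Rk1. In CPM these are 2.07 and 1.76 untreated and 2.78 and 2.25 with Rk1, so the groups did not overlap, although the counts are low. The exact Poisson interval of the 42 counts ran from 30.3 to 56.8 and that of the 50 counts from 37.1 to 65.9, which covers counting error only. Its log2 fold change of 0.39 ± 0.23 did not pass (edgeR adjusted p = 0.28), with a 95% interval from 0.90-fold to 1.92-fold. That interval includes both no change and a rise as large as that of Kdm3a, so neither can be told from the other at this depth.

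The relatives of Vegfa did not move together. Vegfd, a ligand for lymphatic vessels, was at 248 and 241 CPM untreated and at 78.7 and 89.4 CPM with Rk1, and fell by 1.54 ± 0.06 on the log2 scale (edgeR adjusted p = 2.1e-05). Vegfb, a ligand of the receptor FLT1, was at 22.1 and 20.7 CPM untreated and rose to 31.3 and 32.6 CPM with Rk1 (0.58 ± 0.07, adjusted p = 0.0017 by edgeR). Per kilobase of exon, Vegfd stood at 83.2 CPM untreated and 28.6 CPM with Rk1, above Vegfa before treatment and below it after. Vegfc (-0.09) and the placental growth factor gene Pgf (-0.39) did not pass. Of 7 tested VEGF ligands and receptors outside the members, 1 was called higher and 3 lower, against 11.5% and 10.5% of all tested genes. Their median log2 fold change was -0.14. The other lower genes, the co-receptors Nrp1 (-0.18) and Nrp2 (-0.14), lost their calls in each fit with 1 library fewer. The receptor gene Kdr had 0 counts in every library (a level of up to 0.167 CPM stays possible in the shallowest), and Flt1 was at 20.2 and 20.9 CPM on average (0.05 ± 0.08, not called).

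Around Adm, the receptor chain gene Calcrl (0.37 ± 0.10, edgeR adjusted p = 0.042) was called higher and its partner Ramp2 (-0.49 ± 0.08, edgeR adjusted p = 0.0062) lower. Of the 4 genes tested in this list of adrenomedullin peptides and receptors, 1 was called higher and 2 lower. The shares over all tested genes were 11.5% and 10.5%. Ramp2 was called in each fit that left out 1 library, Calcrl was lost without untreated replicate 2 or Rk1 replicate 2, and Ackr3, a scavenging receptor (-0.62 ± 0.18), was lost in each of the 4 fits with 1 library fewer. Ramp1 and Ramp3 had at most 3 counts in any library.

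**Figure D3:**
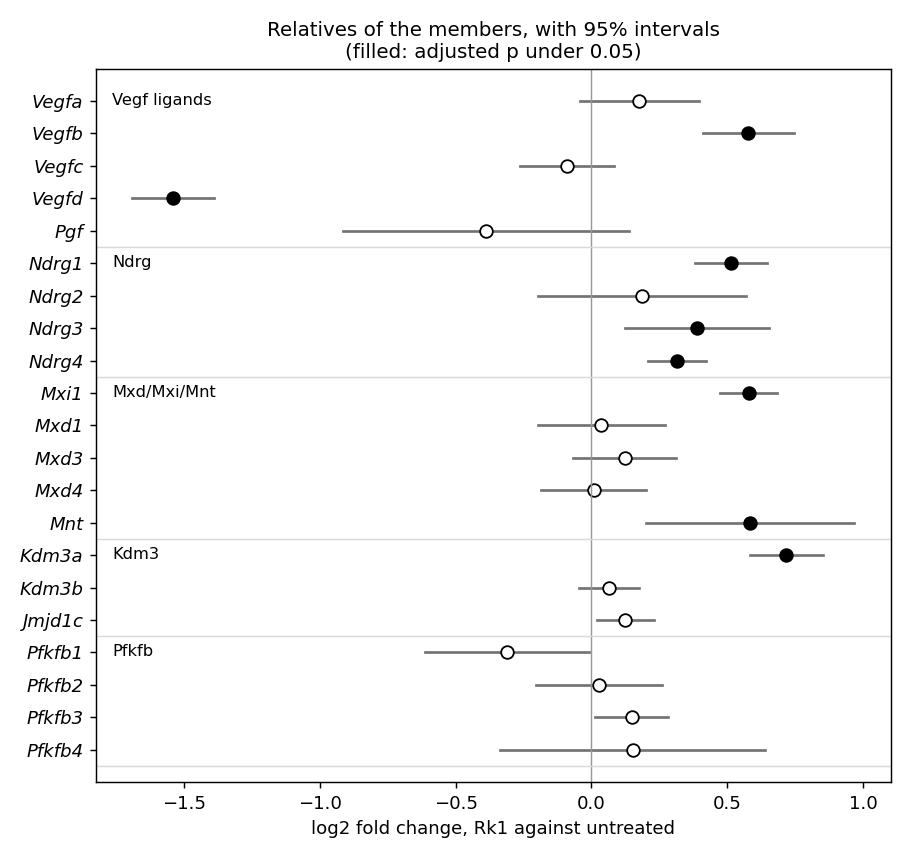
Log2 fold change, Rk1 against untreated (x axis), with 95% intervals, of members and their tested relatives, with filled circles for an adjusted p under 0.05. Vegfd sits at -1.54 and Vegfb at 0.58 on either side of Vegfa (0.18), and Kdm3a at 0.72 stands apart from Kdm3b (0.06) and Jmjd1c (0.12).

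Ddit4, Ankrd37 and Ndrg1 act inside the cell as signalling or scaffold proteins. Ddit4 (ENSRNOG00000057078, chromosome 20, 29509289 to 29511382, minus strand) encodes REDD1, which restrains the growth kinase complex mTORC1 through the TSC proteins. It was at 69.5 and 88.9 CPM untreated and at 158 and 193 CPM with Rk1. Each Rk1 library was at least 1.78-fold above each untreated one, and the 2 libraries of a group differed by 1.28-fold and 1.22-fold. Its log2 fold change was 1.15 ± 0.13 (edgeR adjusted p = 0.0010), the 103rd highest of 12316. With robust dispersions the same change was not called (edgeR adjusted p = 0.074, against down to 5.7e-06 in the other refits), and it was called when any 1 library was left out.

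Ankrd37 (ENSRNOG00000031335, chromosome 16, 49462889 to 49465888, plus strand), a small ankyrin repeat protein known as a HIF target, had 46 and 31 counts untreated and 95 and 80 with Rk1. That is 2.27 and 1.70 CPM untreated and 5.29 and 4.39 CPM with Rk1, without overlap. The log2 fold change of 1.28 ± 0.22 (edgeR adjusted p = 0.0073) ranked 84th highest of all tested genes, and its 95% interval was wide, from 1.69-fold to 3.49-fold. Ankrd37 is the gene with several cores near its start in the sequences above, and 1 gene allows no reading of that.

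Ndrg1 (ENSRNOG00000007393, chromosome 7, 107734323 to 107775714, minus strand), a stress-responsive protein that restrains metastasis in several cancers, was at 201 and 189 CPM untreated and at 291 and 267 CPM with Rk1. The groups stood well apart, and the rise of 0.51 ± 0.06 (edgeR adjusted p = 9.8e-04) was 1.33-fold to 1.53-fold over the 4 pairs of libraries. The estimates for its relatives were smaller. Ndrg4 went from 80.0 ± 1.5 to 99.4 ± 0.59 CPM (0.31 ± 0.05, edgeR adjusted p = 0.0031), and Ndrg2 did not pass (0.19 ± 0.16). Ndrg3 was called (0.39 ± 0.11, edgeR adjusted p = 0.047) but lost that call in each fit with 1 library fewer. The differences between Ndrg1 and its relatives were not tested.

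Around Ddit4, 1 of 15 tested genes that control mTORC1 was called higher, or 6.67%, against 11.5% of all tested genes. It was Mtor, the kinase itself (0.20 ± 0.04, edgeR adjusted p = 0.018), which lost that call in each fit with 1 library fewer. The 15 genes' median log2 fold change was 0.06. Txnip, which stabilises REDD1, was at 373 and 439 CPM untreated and at 459 and 600 CPM with Rk1 (0.38 ± 0.12, edgeR adjusted p = 0.065).

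Mxi1 and Kdm3a act on transcription and chromatin, and the libraries of Mxi1 lay closest together among the genes that rose. Mxi1 (ENSRNOG00000034078, chromosome 1, 274030978 to 274090071, plus strand), which pairs with MAX and opposes MYC, was at 67.1 and 66.8 CPM untreated and at 101 and 99.4 CPM with Rk1. The 2 libraries of each group differed by at most 1.01-fold, against a rise of 0.58 ± 0.04 (edgeR adjusted p = 2.2e-04). Over the 13 other ways of processing the counts, the log2 fold change of Mxi1 stayed between 0.55 and 0.59.

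Kdm3a (ENSRNOG00000007814, chromosome 4, 99503176 to 99546905, minus strand), the histone H3 demethylase, was at 84.7 and 81.6 CPM untreated and at 143 and 131 CPM with Rk1. Each Rk1 library was at least 1.54-fold above each untreated one (0.72 ± 0.06, edgeR adjusted p = 2.6e-04). Its 2 paralogs in the same subfamily did not pass, Kdm3b at 0.06 ± 0.05 and Jmjd1c at 0.12 ± 0.05 on the log2 scale. Of 19 tested JmjC-domain genes outside the members, 5 were called higher and 1 lower, against 11.5% and 10.5% of all tested genes. Their median log2 fold change was 0.06. Kdm4b, a demethylase of H3, rose the most of the 19, from 41.3 ± 1.4 to 63.3 ± 1.1 CPM (0.61 ± 0.05, edgeR adjusted p = 3.2e-04). Kdm4b and Jmjd6 are also among the hypoxia-induced genes counted further on. Kdm5b (0.27 ± 0.05) and Kdm7a (0.54 ± 0.11) were also called, Kdm7a not without Rk1 replicate 1. Jmjd6 (0.32) was lost without untreated replicate 2 or Rk1 replicate 1, Kdm2a (0.17) in each of the 4 fits with 1 library fewer, and the lower gene, Kdm4a (-0.32 ± 0.08), without untreated replicate 2 or Rk1 replicate 1. The count of 5 was 3 without untreated replicate 2 and 2 without Rk1 replicate 1.

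Around Mxi1, 10 of the 11 tested partners and rivals did not pass. MAX, the shared partner, had a log2 fold change of 0.11 ± 0.05, and Myc was at 24.2 and 38.9 CPM untreated and at 20.4 and 30.5 CPM with Rk1, so its groups overlapped. Mnt, another MAX-binding repressor, was called (0.58 ± 0.16, edgeR adjusted p = 0.042), at 22.8 and 20.5 CPM untreated and at 38.6 and 26.4 CPM with Rk1, but not without untreated replicate 2 or Rk1 replicate 1. The median log2 fold change of the 11 genes was 0.01, and 9.09% of them were called higher, against 11.5% of all tested genes.

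Pfkfb3 and Pfkfb4 encode bifunctional enzymes that make and remove fructose-2,6-bisphosphate, the activator of phosphofructokinase, so they stand closer to glycolysis than the other members. Pfkfb3 (ENSRNOG00000018911, chromosome 17, 70684134 to 70713726, plus strand) was at 73.5 and 73.6 CPM untreated and at 77.4 and 85.5 CPM with Rk1. The groups did not overlap, yet the log2 fold change of 0.15 ± 0.06 did not pass (edgeR adjusted p = 0.11). Its 95% interval ran from 1.01-fold to 1.22-fold, so a change as large as that of Ndrg1 lies outside it. Without Rk1 replicate 1 the estimate was 0.22 and just passed (edgeR adjusted p = 0.049, against up to 0.44 in the other refits).

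Pfkfb4 (ENSRNOG00000020656, chromosome 8, 117737117 to 117775386, plus strand) had 52 and 53 counts untreated and 50 and 60 with Rk1. These are 2.56 and 2.91 CPM untreated and 2.78 and 3.29 CPM with Rk1, and the groups overlapped (0.15 ± 0.21, edgeR adjusted p = 0.65). The 95% interval, from 0.79-fold to 1.56-fold, includes the rises of Mxi1 and Ndrg1. Per kilobase of exon, Pfkfb3 exceeded Pfkfb4 by 11.36-fold and 10.01-fold in the untreated libraries and by 11.02-fold and 10.28-fold in the Rk1 libraries, so the groups overlapped. Pfkfb1 (-0.31 ± 0.13) and Pfkfb2 (0.03 ± 0.10) did not pass either. Among the phosphofructokinase genes, which the product of these enzymes activates, Pfkl rose from 144 ± 7.2 to 216 ± 15 CPM (0.58 ± 0.06, edgeR adjusted p = 8.7e-04), while Pfkm (0.04 ± 0.04) and Pfkp (0.10 ± 0.04) did not pass.

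Counts were also set against those of Vegfa inside each library, as a description only. Vegfa was chosen as a gene seen to stay nearly level, so these ratios restate the fold changes relative to it and are no further support for them. The log2 ratio of Ddit4 to Vegfa was -0.86 and -0.79 untreated and 0.08 and 0.21 with Rk1, a difference of 0.97. For Ankrd37 the difference was 1.11, for Kdm3a 0.54, for Mxi1 0.40 and for Ndrg1 0.33, and in these 5 genes the Rk1 libraries lay above the untreated ones, in Ndrg1 barely (0.96 and 0.68 against 0.67 and 0.30). For Adm (0.21), Pfkfb4 (-0.03) and Pfkfb3 (-0.03) the libraries of the groups overlapped. The share of all tested genes whose ratio to Vegfa separates the groups was not computed.

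**Figure D4:**
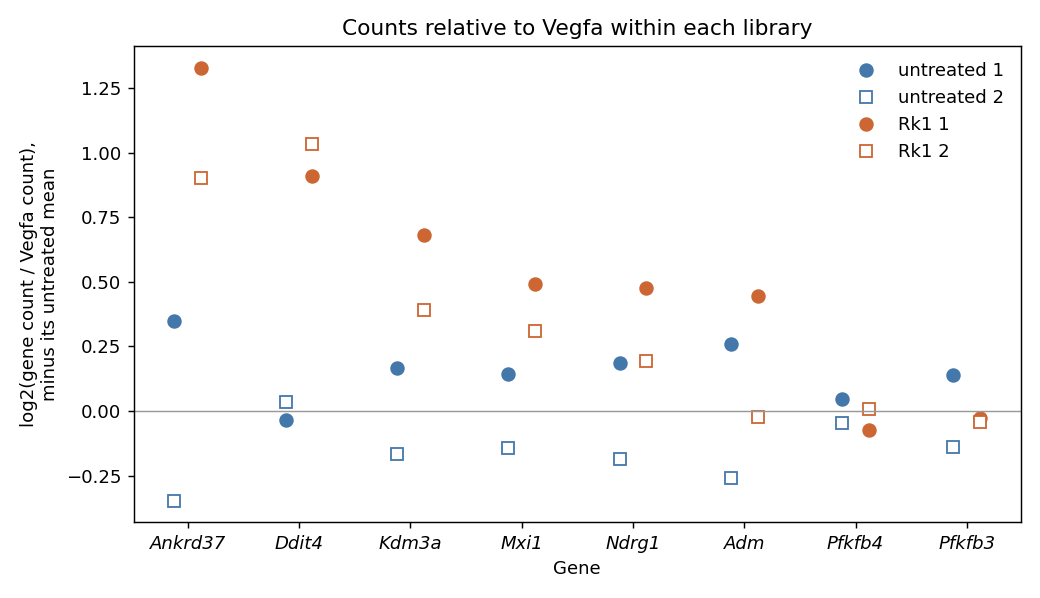
Log2 ratio of each gene's count to the Vegfa count in the same library, minus the mean of the untreated libraries (y axis), for the other 8 genes; circles are replicate 1 and squares replicate 2. The Rk1 points of Ankrd37, Ddit4, Kdm3a, Mxi1 and Ndrg1 lie above both untreated points, and those of Adm, Pfkfb4 and Pfkfb3 do not.

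The members were set beside 42 other genes that hypoxia is known to induce, of which 38 were tested. Of these, 30 were called higher and 3 lower, and 23 or 24 higher when any 1 library was left out. Their median log2 fold change was 0.55, near the 0.51 of the 9 members. Over all tested genes, 11.5% were called higher and 10.5% lower. In the joint order of these 47 genes, Ankrd37 stood 3rd, behind Bhlhe40, a transcriptional repressor (1.73 ± 0.06), and Bnip3, a mitophagy receptor (1.69 ± 0.05). Ddit4 was 7th, Kdm3a 17th, Mxi1 22nd, Ndrg1 26th and Adm 29th, and Vegfa, Pfkfb4 and Pfkfb3 were 36th, 38th and 39th. Among the lower genes were Cited2, which competes with HIF for its coactivators (-0.66 ± 0.06), and the matrix crosslinking enzyme gene Lox (-0.44 ± 0.04). Besides Vegfa, Adm, Pfkfb3 and Pfkfb4, another 5 of the 38 genes did not pass, Plin2, a coat protein of lipid droplets (-0.04), among them.

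**Figure D5:**
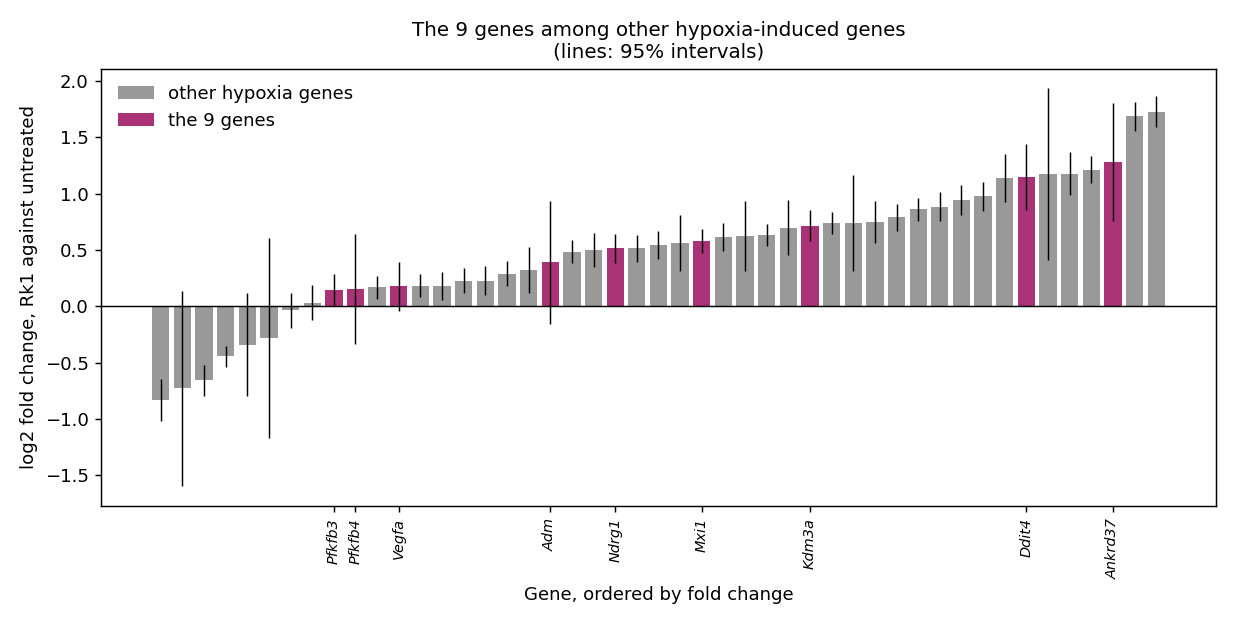
Log2 fold change, Rk1 against untreated (y axis), of the 9 genes (coloured bars) and the 38 other tested hypoxia-induced genes (grey bars), in order, with lines for 95% intervals and names under the coloured bars. From the right, the coloured bars spread from 3rd place (Ankrd37, 1.28) to 39th (Pfkfb3, 0.15).

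Upstream of the members, Hif1a, the oxygen-regulated subunit, was at 293 and 295 CPM untreated and rose to 404 and 401 CPM with Rk1 (0.45 ± 0.04, edgeR adjusted p = 3.9e-04). Egln1, the main oxygen-sensing hydroxylase and itself a HIF target, rose from 29.3 ± 2.0 to 49.3 ± 4.2 CPM (0.75 ± 0.08, edgeR adjusted p = 8.6e-04). Of the 7 tested HIF subunits and sensors, 2 were called higher, against 11.5% of all tested genes, and the median log2 fold change was 0.02. Egln1 is also counted among the hypoxia-induced genes above. HIF protein is set mainly by its stability, which RNA does not measure.

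Ddit4 is also induced by ATF4 and by the glucocorticoid receptor, and Vegfa by ATF4, so targets of these factors were counted from the same fit. Of 15 tested ATF4 and CHOP genes, 3 were called higher and 2 lower, against 11.5% and 10.5% of all tested genes. Their median log2 fold change was -0.20. In 14 of the 15, replicate 2 was higher than replicate 1 in both groups, which held for 27.8% of all tested genes. Phgdh (-0.33 ± 0.04) and Psat1 (-0.28 ± 0.05), both of serine synthesis, were lower, and Vldlr (0.31), Cebpb (0.21) and Ppp1r15a (0.32) were higher. Of the same genes, 5 were lower without untreated replicate 1 and 7 without Rk1 replicate 2. The count of higher genes was 0 without untreated replicate 1 and 1 without Rk1 replicate 2, by edgeR. Of 12 tested glucocorticoid receptor genes, 6 were called higher, against 11.5% of all tested genes, with a median of 0.30. They included the metallothionein gene Mt2A (1.37 ± 0.07), Dusp1, a phosphatase of MAP kinases (0.79 ± 0.09), the receptor gene Nr3c1 itself (0.33 ± 0.06) and Fkbp5, its co-chaperone (0.29 ± 0.05). The part of either factor in the rise of Ddit4 was not tested.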

How the data were processed

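RNA-seq libraries of 4 HSC-T6 samples, 2 untreated and 2 with Rk1, were grouped by the treatment in the sample labels. The sample titles matched the count columns to the samples. The authors deposited raw counts per Ensembl gene with exon lengths and Rnor_6.0 positions, per the file headers. HISAT2 and HTSeq are named in the submitters' processing notes; their versions and settings, strandedness included, were not given in the sources used here. No annotated gene overlaps a member.

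Of 17410 genes with a count, 12316 passed filterByExpr at a minimum count of 10 and a minimum total of 15. They were scaled by TMM and tested with edgeR 4.0.16's quasi-likelihood test (group only, 2 residual degrees of freedom, two-sided, Benjamini-Hochberg over all tested genes, threshold 0.05) in R 4.3.3. Scripts were tested on simulated data. The 13 alternatives included DESeq2 1.42.0 and limma-voom (limma 3.58.1), other scalings and filters, the replicate number as a block and leaving out each library.

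CPM are counts scaled to the library's total over tested genes times its TMM factor. Intervals (95%) and the floor of 3 counts cover sampling in these libraries only. Counts of the replicates were further apart than sampling noise gives (chi-square over its degrees of freedom, 4.57 and 4.67). Each was kept as a sample, although such spread can also be technical and does not show that the cultures were independent.

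The members and 11 gene lists were chosen with earlier results of these data known. Beside the members, up to 4 called genes with the smallest adjusted p and up to 2 abundant uncalled ones were named per list, plus paralogs. Genes named in counts of 5 or fewer, and Myc, were chosen after their values were seen, and 1 gene of the hypoxia list is not reported here by name. Promoter windows come from RefSeq (GRCr8), a build other than that of the gene positions.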

Additional observations from a re-analysis of the deposited data

How the results depend on the processing

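The 9 members' fold changes were refitted under 13 alternatives, 117 refits in all, of which 113 stayed on the same side of the threshold, 4 crossed it and 0 changed sign. The 4 were Vegfa without untreated replicate 2 and with the replicate block, Pfkfb3 without Rk1 replicate 1, and Ddit4 with robust dispersions, and 4 to 6 members were called higher. The replicate numbers of the titles were not taken as pairs, since no label says that a number marks a shared culture. Deviations of same-numbered libraries correlated at 0.093 over all tested genes. That value covers all genes at once and cannot decide whether smaller sets, such as the ATF4 and CHOP targets, share a replicate difference. With the replicate block, 1676 genes were called higher and 1538 lower, Vegfa was called (0.18, edgeR adjusted p = 0.034), as was Ddit4 (1.15, edgeR adjusted p = 3.7e-05), and the counts were 8 lower among ATF4 and CHOP targets, 3 higher and 1 lower in mTORC1 control, 1 lower in the MYC network and 1 higher in the NDRG family. DESeq2 called 859 genes higher and 853 lower, against 1422 and 1289 by edgeR. It called 0 higher and 1 lower among adrenomedullin receptors, 1 higher in the NDRG family and 0 higher in mTORC1 control. Upper-quartile factors gave 0 higher adrenomedullin receptors, 1 higher NDRG gene and 1 lower HIF subunit or sensor. Without scaling factors 1 adrenomedullin receptor was lower, as it was with no low-count filter, where 1 NDRG gene was higher. In the MYC network limma-voom and robust dispersions each left 0 higher, and robust dispersions gave 1 lower HIF gene.

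Leaving out 1 library, where the lone sample left takes its spread from the other group, gave 824 to 1110 genes higher (824 without untreated replicate 2) and 859 to 936 lower. The lists then held 1 lower VEGF gene, 0 to 1 higher and 1 lower adrenomedullin receptors, 1 higher NDRG gene, 0 to 1 higher mTORC1 genes, 0 to 2 higher MYC network genes, 2 to 4 higher and 0 to 1 lower JmjC genes, 0 to 1 lower HIF genes, and 0 to 2 higher and 2 to 7 lower ATF4 targets. The causes of these moves were not tested. With ACGTG alone, 4 of the 8 members with a promoter window held the motif, against 20.9% of all genes with a window. Among the tested genes with a window the share was 27.0%. With GCGTG alone, 3 of the 8 members did, against 32.4% of all genes with a window and 52.1% of the tested ones. Whether these shares differ was not tested.

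Depth limits Adm, Ankrd37 and Pfkfb4, each with at most 95 counts in a library, and the 2 libraries per group limit every test.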

Other observations

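A pattern across the replicate numbers was noticed after the values were seen. Vegfa, Ddit4, Pfkfb3 and Pfkfb4 were higher in the library titled 2 than in that titled 1 in both groups, which is 44.4% of the members against 27.8% of the 12316 tested genes. For Ddit4 the ratio of replicate 2 to replicate 1 was 1.28 untreated and 1.22 with Rk1, and for Vegfa 1.22 and 1.12. The same order held for 14 of 15 tested ATF4 and CHOP targets. Trib3, a pseudokinase induced by stress, had ratios of 1.99 and 2.43, Chac1, which degrades glutathione, 1.94 and 2.49, and Sesn2, a stress-induced restraint on mTORC1, 1.62 and 1.77. Pfkfb3 was nearly level in the untreated libraries (1.001, against 1.10 with Rk1). The remaining members were lower in replicate 2 in both groups, furthest in Ankrd37 (0.75 and 0.83) and Adm (0.85 and 0.81), both of low count. Ndrg1 (0.94 and 0.92) and Kdm3a (0.96 and 0.91) were slightly lower, and Mxi1 (0.996 and 0.986) was nearly level. Each member thus kept its replicate order in both groups, although Mxi1 and the untreated libraries of Pfkfb3 were near ties. The share of all tested genes that kept theirs in either direction was not computed. The kept order can therefore not be read as particular to the members. The fit that takes the replicate number as a block called both Ddit4 and Vegfa, with the values given among the alternatives above. The rise of Ddit4 was also called without either library titled 2.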
